A study of Mus musculus with 8 samples.

Results

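Aminoacyl-tRNA synthetase genes were followed in B cell progenitors from the bone marrow of control mice and of mice with a conditional knockout of *Upf1*, an RNA helicase required for nonsense-mediated decay. The 35 genes were chosen by name, as the 19 synthetase genes of the cytosol and the 16 of the mitochondrion, whose symbols end in 2. All 35 were found by Entrez identifier among the 27179 genes of the count table, and all 35 passed the filter on low counts that left 17700 genes for testing. RNA depleted of ribosomal RNA had been sequenced from sorted early LPre-B (eLPre) cells, which are large and carry surface CD43 without CD2, and from sorted sPre-B (sPre) cells, which are small and carry CD25 and CD2. Each stage was collected from Ctrl mice (Upf1 Flox/Flox with Mb1 +/+) and from cKO mice (Upf1 Flox/Flox with Mb1 Cre/+), with 2 libraries in each of the 4 groups. Animals of both genotypes carried the Igh B1-8hi/+ knock-in, a heavy chain gene that is already rearranged and that lets cKO cells reach the sPre stage. Mb1 is *Cd79a*, so that Cre is expressed from the start of the B lineage and 1 *Cd79a* copy carries it in the cKO mice. The mice, of both sexes and on the C57BL/6 background, had an age of 8 to 16 weeks, and exons 4 to 6 of *Upf1* lie between the loxP sites. The comparisons ask how the transition from eLPre to sPre changed the synthetase genes and how each stage differed between the genotypes.

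A synthetase joins an amino acid to its tRNA, and translation cannot use a tRNA that is not charged. Cytosolic and mitochondrial ribosomes are mostly served by separate synthetases, both encoded in the nucleus, although *Kars1* and *Gars1* each give rise to a cytosolic and a mitochondrial form. Glutamine has no mitochondrial synthetase of its own, and *Ears2* loads glutamate onto that tRNA before an amidotransferase converts it. Many cytosolic synthetase genes are known targets of ATF4, the transcription factor of the integrated stress response, which binds C/EBP-ATF elements in amino acid response genes. In B cell progenitors, large pre-B cells divide and small pre-B cells rest while the light chain gene rearranges.

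Library totals lay between 68516857 and 160426338 counts, so that 3 counts, the smallest level taken as shown, amount to 0.0217 to 0.0426 CPM, which covers counting error only. CPM here are counts scaled to a common library size with the TMM factors of edgeR. Nothing in the labels ties a library to an animal. The study describes the replicates as independent biological ones. P-values measure the spread between these libraries, and n = 2 in every group. In bulk RNA, fewer cells with a transcript and less of it per cell cannot be told apart. *Upf1* stood at 237 and 213 CPM in Ctrl eLPre, 186 and 198 in Ctrl sPre, 244 and 258 in cKO eLPre, and 282 and 293 in cKO sPre. The gene-level count, which includes exons outside the deletion, did thus not fall in any library with the cKO label and does not check the labels. By edgeR's quasi-likelihood test it was higher in cKO sPre than in Ctrl sPre cells (Log2FC 0.585, adjusted P = 0.0024). In eLPre cells it was not called (0.16, adjusted P = 0.251). *Cd79a*, the gene that carries Cre in cKO mice, was at 641 and 543 CPM in Ctrl eLPre against at most 188 in cKO eLPre, and at 1478 and 1602 against 405 and 325 CPM in sPre cells (Log2FC −1.77 and −2.08), so that it separated the libraries by genotype label at both stages. The sort was visible in *Il2ra* (CD25), at 18.6 to 53.6 CPM in the 4 eLPre and 476 to 532 CPM in the 4 sPre libraries. Stage markers also moved with genotype. Of 15 pre-B markers, *Cd79a* included, 8 were lower in cKO eLPre than in Ctrl eLPre cells, among them *Dntt* (Log2FC −3.31), *Rag1* (−2.74), *Kit* (−2.51) and *Il2ra* itself (−1.02), and in sPre cells 2 were higher and 4 lower. Of all genes tested 16.9% were lower in cKO eLPre, and 19.8% higher and 14.9% lower in cKO sPre cells. Their part in the results on the synthetase genes was not tested. *Xist* had 304 and 151 counts in the replicate 2 libraries of Ctrl eLPre and Ctrl sPre and at least 290740 in the other 6, so that the counts of genes called were also made without those 2 libraries. T cell markers other than *Lck* were at most 1.1 CPM in any library, and none of the marker genes searched was at 0 in all libraries. Summed over 4 dendritic cell markers, levels were 72.3 and 123 CPM in Ctrl sPre and 401 and 358 CPM in cKO sPre, of which *Itgax* made up most. Summed over 8 myeloid markers, they were 111 and 134 CPM in Ctrl eLPre, 304 and 356 in Ctrl sPre, 50.1 and 55.6 in cKO eLPre, and 211 and 243 in cKO sPre. *Itgam* made up most of each sum, at 87.1 and 97.4, 228 and 262, 30.4 and 41.2, and 179 and 176 CPM. Sums over 5 plasma cell markers were 96.0 to 178 CPM, of which *Sdc1* and *Xbp1* made up most. Over the 6 erythroid markers measured they were 10.5 to 37.6 CPM. The study sorted cells negative for lineage markers, with antibodies to CD11b (*Itgam*) and CD11c (*Itgax*) among the lineage stains. Whether cells of other types had a part in these sums or in the results was not tested.

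Per length, most cytosolic synthetase genes were expressed above most mitochondrial ones, and *Vars1*, the valine enzyme, stood above all others in every group. Its level per kilobase of exon was 132, 143, 148 and 251 CPM in Ctrl eLPre, Ctrl sPre, cKO eLPre and cKO sPre. The gene in second place had 61.1 CPM per kilobase in Ctrl eLPre (*Kars1*), 35.2 in Ctrl sPre (*Qars1*), 63.0 in cKO eLPre (*Aars1*) and 50.3 in cKO sPre (*Mars1*). *Cars1*, the cysteine enzyme, was the lowest cytosolic gene in both Ctrl groups, at 14.2 CPM per kilobase in eLPre and 12.5 in sPre, and the third highest in cKO sPre, at 45.7. *Hars1* took the last cytosolic place in both cKO groups, at 26.8 and 16.6 CPM per kilobase.

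Among mitochondrial genes, the highest level per kilobase belonged to *Iars2* in Ctrl eLPre (20.0 CPM), to *Fars2* in Ctrl sPre (20.4), to *Lars2* in cKO eLPre (57.9, set by 1 library) and to *Rars2* in cKO sPre (19.3). The lowest mean belonged to *Wars2* in Ctrl eLPre (2.31) and cKO eLPre (3.43), to *Ears2* in Ctrl sPre (1.96) and to *Pars2* in cKO sPre (2.26). In replicate 2 alone, *Ears2* lay below *Wars2* in Ctrl eLPre (1.89 against 2.20) and *Pars2* in cKO eLPre (3.67 against 3.83). The order is close in places. In Ctrl eLPre, *Sars2* and *Fars2* followed *Iars2* at 14.7 and 14.6 CPM per kilobase, and their difference lies within the spread of *Fars2* between replicates. In cKO sPre, *Rars2* was first by its mean but in neither library, at 19.45 and 19.19. *Cars2* was at 19.99 and 17.35 there, and *Iars2* at 17.45 and 19.36. In the plot of levels per length most cytosolic lines run within a narrow band, from which *Vars1* stands apart.

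**Figure D1:**
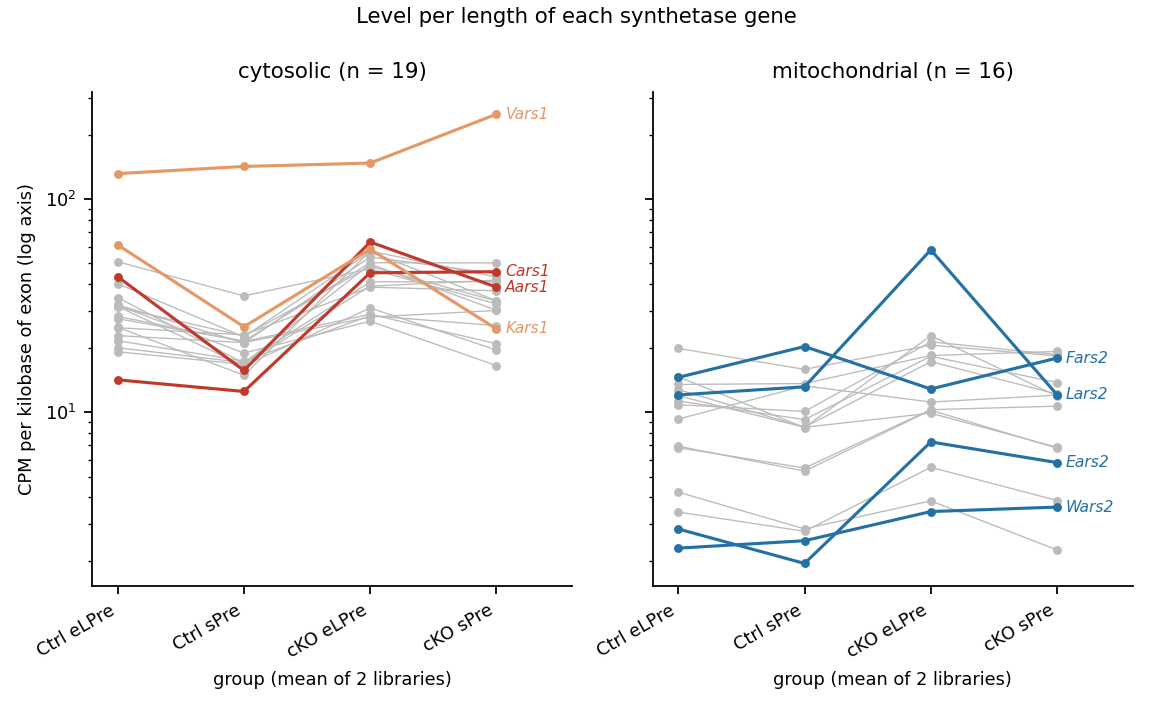
Mean level of each synthetase gene per kilobase of exon (log axis) in the 4 groups, with cytosolic genes on the left, mitochondrial genes on the right and 8 genes named in the text coloured (red for known ATF4 targets, orange for other cytosolic genes, blue for mitochondrial genes). *Vars1* is the highest line in every group, and *Cars1* goes from the lowest cytosolic line in Ctrl eLPre (14.2) to 45.7 CPM per kilobase in cKO sPre.

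In cells labelled cKO, most synthetase genes of both compartments were higher than in Ctrl at either stage. In eLPre cells, 12 of 19 cytosolic and 11 of 16 mitochondrial genes rose at an adjusted P under 0.05, against 14.5% of all genes tested that rose. None of the 35 fell, against 16.9% of all genes. In sPre cells, 14 of 19 cytosolic and 9 of 16 mitochondrial genes rose, against 19.8% of all genes, and again none fell, against 14.9%. The median Log2FC (cKO against Ctrl) was 0.52 for cytosolic and 0.57 for mitochondrial genes in eLPre cells, beside −0.06 for all genes tested. In sPre cells it was 0.69 and 0.49, beside 0.01. Before adjustment, edgeR's quasi-likelihood test put 2 members at a P under 0.05 as lower in cKO eLPre cells (*Hars1* and *Mars2*) and 1 in cKO sPre cells (*Mars2*). Adjusted calls of edgeR's likelihood-ratio test and of DESeq2 included no lower member in eLPre, and in sPre DESeq2 called 1. Scaling by library totals alone, without TMM factors, turned 2564 higher and 2983 lower genes into 3754 and 1677 in eLPre cells and moved the median of all genes to 0.11. With it 13 cytosolic and 12 mitochondrial genes rose there and none fell. The fit of only the 4 eLPre libraries gave 2924 higher and 2274 lower genes.

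**Figure D2:**
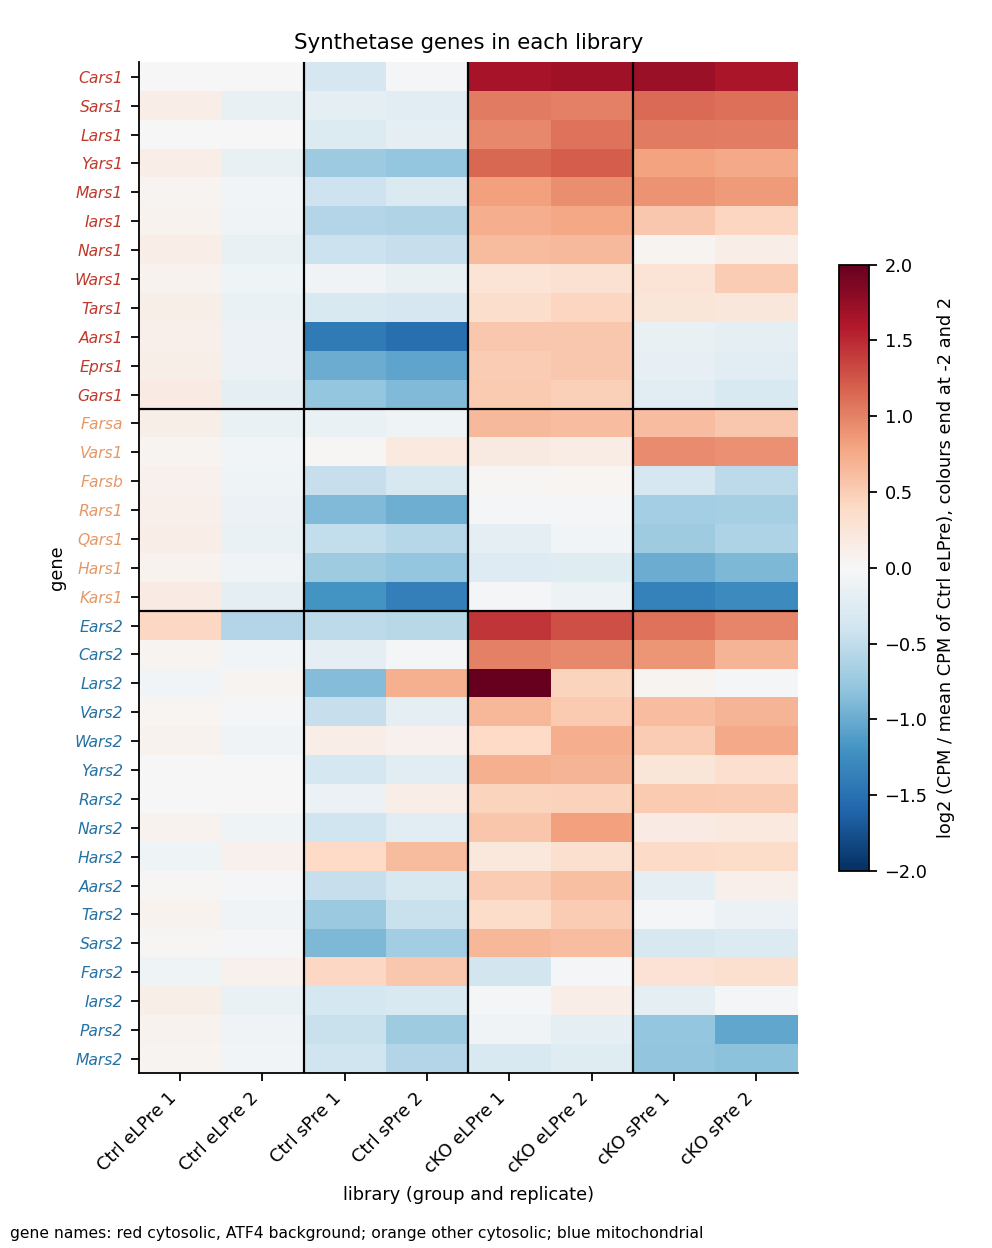
Level of each of the 35 synthetase genes in each of the 8 libraries, as the log2 of its CPM over the mean of the 2 Ctrl eLPre libraries (red above, blue below, colours end at −2 and 2), with known ATF4 targets at the top, other cytosolic genes in the middle and mitochondrial genes below. The upper block is red in all 4 cKO libraries for *Cars1*, *Sars1*, *Lars1*, *Yars1*, *Mars1* and *Iars1*, while *Kars1*, *Hars1*, *Qars1* and *Rars1* turn blue in the sPre libraries of both genotypes.

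The cytosolic genes that rose were almost all known ATF4 targets. Of the 12 genes in that group (*Aars1*, *Cars1*, *Eprs1*, *Gars1*, *Iars1*, *Lars1*, *Mars1*, *Nars1*, *Sars1*, *Tars1*, *Wars1* and *Yars1*), 11 rose in eLPre cells, with a median Log2FC of 0.69 over the 12, and all 12 in sPre cells, with a median of 1.15. Of the 7 other cytosolic genes (*Farsa*, *Farsb*, *Hars1*, *Kars1*, *Qars1*, *Rars1* and *Vars1*), *Farsa* alone rose in eLPre cells, and *Farsa* and *Vars1* rose in sPre cells. Over all genes tested 14.5% rose in eLPre and 19.8% in sPre cells, and the counts for these 7 lie near those shares. The medians of these 7 were −0.03 at either stage. The grouping was made from background knowledge with earlier results of these data known, so that it is a description of which genes moved and no independent evidence. The difference between the 2 groupings of genes was not tested.

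*Cars1* (chromosome 7, 143557230 to 143600090, mm10) changed most among cytosolic genes. Its level was 46.0 and 45.6 CPM in Ctrl eLPre and 36.4 and 44.4 in Ctrl sPre, against 143 and 148 in cKO eLPre and 152 and 142 in cKO sPre. Every cKO library lay above every Ctrl library, and the 4 cKO values were close to each other. The Log2FC was 1.67 (SE 0.11, adjusted P = 4.7e-05) in eLPre and 1.87 (SE 0.11, adjusted P = 2.12e-05) in sPre cells, or 3.18-fold and 3.65-fold. *Yars1*, the tyrosine enzyme (chromosome 4, 129189734 to 129219240), had 70.0 and 57.6 CPM in Ctrl eLPre, 142 and 149 in cKO eLPre, 38.4 and 37.5 in Ctrl sPre and 111 and 109 in cKO sPre. Both stages are separated by genotype here, and both genotypes are lower at the sPre stage. The Log2FC was 1.19 (SE 0.10) in eLPre and 1.53 (SE 0.10, adjusted P = 3.93e-05) in sPre cells.

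The serine and leucine enzymes followed in eLPre cells. *Sars1* was at 77.1 and 63.2 CPM in Ctrl eLPre and 144 and 141 in cKO eLPre, with 62.3 and 60.2 against 154 and 150 CPM in sPre cells. Its Log2FC was 1.02 and 1.31 at the 2 stages. *Lars1* was at 80.3 and 79.9 CPM in Ctrl eLPre and 156 and 170 in cKO eLPre, and its sPre values of 66.6 and 69.7 against 164 and 162 CPM are as well separated. Its Log2FC was 1.03 and 1.26. *Mars1*, the methionine enzyme, rose by 0.87 and 1.22 on the same scale and *Iars1*, the isoleucine enzyme, by 0.75 and 1.08. *Mars1* overlaps *Ddit3*, a target of ATF4 that the study also names as a known target of nonsense-mediated decay. *Ddit3* rose by 2.43 and 2.05, and since reads were counted without strand, the share of each gene in the overlap is uncertain. The same holds for *Aars1*, *Farsb*, *Wars1*, *Iars2* and *Rars2*, each of which overlaps another counted gene. The 6 remaining genes of the group rose less in eLPre cells, from 0.39 (*Tars1*) to 0.64 (*Nars1*) for those past the threshold. *Wars1* had a Log2FC of 0.29 there (adjusted P = 0.0604) and of 0.50 in sPre cells (adjusted P = 0.00608), and passed in eLPre cells when either cKO sPre library was left out (0.05 and 0.0488). *Gars1* and *Tars1* in eLPre cells lost their call when 1 cKO eLPre library was left out, *Gars1* without replicate 1 (adjusted P = 0.0578) and *Tars1* without replicate 2 (adjusted P = 0.0885).

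Among the cytosolic genes outside the ATF4 group, *Farsa* and *Farsb* encode the subunits of a single phenylalanine enzyme and moved apart. *Farsa* was at 49.5 and 41.7 CPM in Ctrl eLPre and 71.1 and 70.3 in cKO eLPre, and at 41.4 and 43.0 against 69.9 and 66.0 CPM in sPre cells. Its Log2FC was 0.63 (adjusted P = 0.00202) and 0.69 (adjusted P = 0.00116). *Farsb* was at 65.8 and 58.4 against 62.9 and 64.1 CPM in eLPre cells and at 45.1 and 49.5 against 49.2 and 43.1 CPM in sPre cells, with genotypes that overlap at both stages. Its Log2FC was 0.03 (SE 0.10) and −0.03 (SE 0.10). *Vars1* was at 566 and 527 CPM in Ctrl eLPre, 616 and 608 in cKO eLPre, 553 and 627 in Ctrl sPre and 1050 and 1025 in cKO sPre. The cKO sPre libraries stood apart from the other 6, with a Log2FC of 0.82 (SE 0.12, adjusted P = 0.00144) against Ctrl sPre and of 0.16 (adjusted P = 0.344) in eLPre cells. *Kars1*, *Qars1*, *Rars1* and *Hars1* did not pass the threshold at either stage. Their Log2FC lay between −0.25 (*Hars1* in eLPre cells, adjusted P = 0.0598) and 0.25 (*Rars1* in sPre cells, adjusted P = 0.079).

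The promoters were searched for the C/EBP-ATF element, a sequence through which ATF4 is known to act, and for the E-box, a motif of other transcription factors, because many of these genes rose together. Windows of 300 bases, the 250 before an annotated start and the first 50 from it, were at hand from RefSeq (GRCm38.p6, the mm10 genome) for 26 of the 35 genes, 12 cytosolic, of which 8 belong to the ATF4 group and 4 do not, and 14 mitochondrial. No window was at hand for *Cars1*, *Lars1*, *Nars1* and *Wars1* of the ATF4 group or for *Hars1*, *Rars1*, *Vars1*, *Hars2* and *Pars2*. The C/EBP-ATF element was searched as TGATGNAA and the E-box as CACGTG, on both strands. TGATGNAA was found in 5 of the 12 cytosolic windows (*Aars1*, *Gars1*, *Iars1*, *Tars1* and *Yars1*), which are 5 of the 8 of the ATF4 group and 0 of the 4 others, and in 0 of the 14 mitochondrial windows. Of all 32851 windows in the RefSeq table, 3.97% hold it. CACGTG was found in 4 cytosolic windows (*Aars1*, *Farsb*, *Iars1* and *Tars1*) and 1 mitochondrial window (*Ears2*), against 7.15% of all windows. No match of the first motif overlaps one of the second in these windows. A match describes letters in the window and is not evidence of binding. The windows of the 5 genes with TGATGNAA and that of *Ears2*, the mitochondrial gene with the largest rise in sPre cells, follow on the strand of the gene, with matches of either motif in capitals. The start used lies at the first base of the annotated gene in *Gars1*, *Iars1* and *Tars1* and inside it in *Aars1* (6064 bases from the first base), *Yars1* (169 bases) and *Ears2* (8 bases). The positions are chr8:111033592-111033891 (*Aars1*, plus strand), chr6:55037751-55038050 (*Gars1*, plus), chr13:49681880-49682179 (*Iars1*, plus), chr15:11399609-11399908 (*Tars1*, minus), chr4:129189653-129189952 (*Yars1*, plus) and chr7:122067037-122067336 (*Ears2*, minus).
*Aars1*: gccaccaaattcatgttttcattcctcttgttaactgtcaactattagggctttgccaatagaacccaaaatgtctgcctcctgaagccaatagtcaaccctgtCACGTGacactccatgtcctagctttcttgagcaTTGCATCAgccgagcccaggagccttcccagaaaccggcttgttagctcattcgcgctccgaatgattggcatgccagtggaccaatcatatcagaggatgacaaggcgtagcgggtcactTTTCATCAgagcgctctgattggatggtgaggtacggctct
*Gars1*: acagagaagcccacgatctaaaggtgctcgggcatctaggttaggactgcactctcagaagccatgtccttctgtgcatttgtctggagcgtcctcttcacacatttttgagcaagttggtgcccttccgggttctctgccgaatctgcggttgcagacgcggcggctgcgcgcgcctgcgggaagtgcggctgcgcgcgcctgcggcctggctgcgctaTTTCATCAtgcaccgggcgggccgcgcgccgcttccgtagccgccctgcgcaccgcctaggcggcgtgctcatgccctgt
*Iars1*: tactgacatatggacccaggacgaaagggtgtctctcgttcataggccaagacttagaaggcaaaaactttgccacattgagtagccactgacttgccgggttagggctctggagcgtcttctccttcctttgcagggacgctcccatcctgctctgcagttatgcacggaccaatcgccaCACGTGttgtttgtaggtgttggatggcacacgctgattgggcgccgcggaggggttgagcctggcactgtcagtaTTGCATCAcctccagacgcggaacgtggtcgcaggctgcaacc
*Tars1*: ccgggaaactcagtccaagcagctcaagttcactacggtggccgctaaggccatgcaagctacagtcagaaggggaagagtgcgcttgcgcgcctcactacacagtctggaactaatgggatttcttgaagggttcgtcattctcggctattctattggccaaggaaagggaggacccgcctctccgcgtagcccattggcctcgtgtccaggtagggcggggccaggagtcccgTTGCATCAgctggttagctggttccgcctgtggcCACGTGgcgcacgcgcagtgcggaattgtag
*Yars1*: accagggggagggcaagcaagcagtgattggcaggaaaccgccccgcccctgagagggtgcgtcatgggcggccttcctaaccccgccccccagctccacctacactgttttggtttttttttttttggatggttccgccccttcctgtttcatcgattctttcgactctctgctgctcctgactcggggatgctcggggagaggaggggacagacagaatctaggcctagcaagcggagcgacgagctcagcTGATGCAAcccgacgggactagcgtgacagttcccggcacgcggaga
*Ears2*: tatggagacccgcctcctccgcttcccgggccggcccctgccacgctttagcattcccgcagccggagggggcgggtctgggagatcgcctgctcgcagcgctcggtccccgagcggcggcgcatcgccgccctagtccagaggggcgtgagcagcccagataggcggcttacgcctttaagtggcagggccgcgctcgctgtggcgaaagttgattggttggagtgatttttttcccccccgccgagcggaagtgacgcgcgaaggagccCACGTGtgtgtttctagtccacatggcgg
The *Aars1* window has TGATGNAA at 2 places, beginning 112 bases before and 9 bases after the start, both on the strand opposite to the gene. The match begins 30 bases before the start in *Gars1*, 15 bases before it in *Tars1*, 7 bases after it in *Iars1* and 3 bases after it in *Yars1*. In sPre cells the 5 genes rose by 1.30 (*Aars1*), 0.56 (*Gars1*), 1.08 (*Iars1*), 0.55 (*Tars1*) and 1.53 (*Yars1*) on the log2 scale. *Sars1*, *Mars1* and *Eprs1*, without TGATGNAA in this window, rose by 1.31, 1.22 and 0.83.

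The rise was not limited to the cytosolic set. *Ears2*, the glutamate enzyme, was at 7.10 and 3.55 CPM in Ctrl eLPre, 14.3 and 13.0 in cKO eLPre, 3.71 and 3.63 in Ctrl sPre and 11.3 and 10.5 in cKO sPre. All cKO values lay above all Ctrl values, although the Ctrl eLPre replicates differed from each other by more than those of any other group. The Log2FC was 1.35 (SE 0.27, adjusted P = 0.0066) in eLPre and 1.57 (SE 0.28, adjusted P = 0.0031) in sPre cells. The first was 1.98 without replicate 1 and 0.996 without replicate 2 of Ctrl eLPre, and called in both (adjusted P = 0.00105 and 0.00767). *Cars2*, the cysteine enzyme of the mitochondrion, was at 21.0 and 19.5 against 40.5 and 39.2 CPM in eLPre cells and 17.9 and 19.7 against 37.2 and 32.3 CPM in sPre cells. Its Log2FC of 0.98 and 0.89 was below that of *Cars1*. *Vars2*, the valine enzyme, rose by 0.59 and 0.96, from 22.0 and 26.6 to 46.4 and 48.3 CPM in sPre cells.

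*Sars2*, *Yars2*, *Nars2*, *Rars2*, *Tars2* and *Wars2* rose at both stages as well, with a Log2FC between 0.43 (*Tars2*) and 0.70 (*Yars2* and *Nars2*) in eLPre cells and between 0.48 (*Nars2*) and 0.58 (*Yars2*) in sPre cells. *Aars2* rose by 0.56 in eLPre cells and had a Log2FC of 0.36 (adjusted P = 0.0536) in sPre cells, called without replicate 1 of cKO sPre (0.49, 0.0432). Many of these calls depend on single libraries. Without replicate 2 of cKO eLPre, 6 mitochondrial genes rose in place of 11, and *Aars2*, *Nars2*, *Rars2*, *Tars2* and *Wars2* no longer passed (adjusted P between 0.0504 for *Nars2* and 0.151 for *Wars2*), while the genes that rose among all tested went from 2564 to 1662. Without replicate 1 of Ctrl sPre, 4 rose in place of 9, and *Nars2*, *Rars2*, *Sars2*, *Tars2* and *Wars2* no longer passed (adjusted P between 0.0696 for *Rars2* and 0.161 for *Nars2*), while those among all genes went from 3505 to 2400. *Rars2* in eLPre cells also lost its call without replicate 1 of cKO eLPre (0.0713), *Tars2* and *Wars2* there without replicate 2 of Ctrl eLPre (0.0657 and 0.0658), and in sPre cells *Nars2* without either cKO sPre library (0.08 and 0.0928), *Tars2* without replicate 1 of it (0.0578) and *Wars2* without replicate 2 of either sPre group (0.113 for Ctrl and 0.139 for cKO). *Rars2* was at 25.4 and 25.2 CPM in Ctrl eLPre and 23.3 and 27.7 in Ctrl sPre, against 34.3 and 34.8 in cKO eLPre and 36.3 and 35.9 in cKO sPre. *Wars2* was at 10.6 and 9.72, 11.2 and 10.9, 13.4 and 16.9, and 14.5 and 17.2 CPM in the same order of groups. Every cKO library exceeded every Ctrl library for both genes.

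*Fars2*, *Hars2*, *Iars2*, *Mars2* and *Pars2* did not pass the threshold at either stage. *Mars2* was at 35.6 and 33.3 against 28.0 and 29.2 CPM in eLPre cells and 26.1 and 23.0 against 20.0 and 19.6 CPM in sPre cells, lower in cKO without overlap. Its Log2FC was −0.27 (adjusted P = 0.0863) and −0.31 (adjusted P = 0.0507). The sPre difference was called by DESeq2 (−0.35, adjusted P = 0.02), without replicate 1 or 2 of Ctrl eLPre (adjusted P = 0.0273 and 0.025) and without replicate 2 of Ctrl sPre (−0.40, 0.0467). *Iars2*, the highest mitochondrial gene per length in Ctrl eLPre, was at 77.0 and 64.9 against 69.2 and 77.9 CPM there, with overlap, and at 55.9 and 57.4 against 62.0 and 68.8 CPM in sPre cells (Log2FC 0.21, adjusted P = 0.175).

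**Figure D3:**
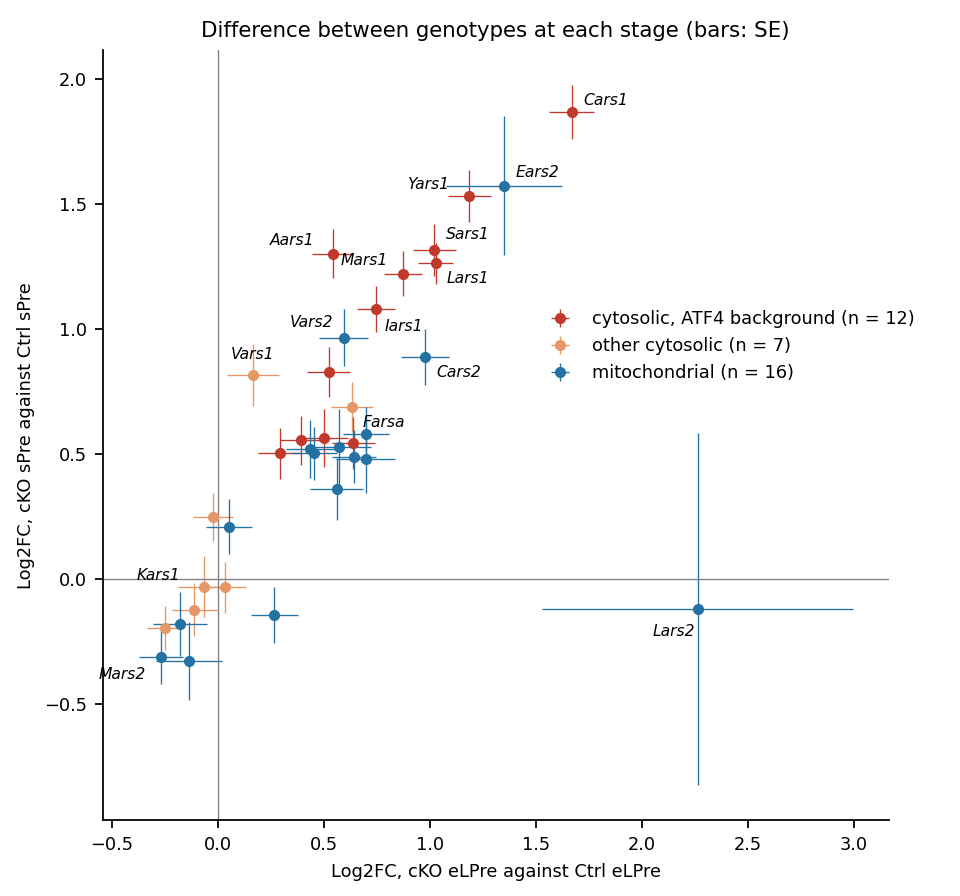
Log2FC of cKO against Ctrl in eLPre cells (horizontal) and in sPre cells (vertical) for the 35 synthetase genes, with SE as bars and colours for known ATF4 targets (red), other cytosolic genes (orange) and mitochondrial genes (blue). *Cars1* lies farthest up at 1.67 and 1.87, most orange points lie near 0, and *Lars2* lies alone at 2.26 and −0.12 with the widest bars.

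*Lars2* cannot be read like the other members, because 1 library decided its values. It had 6241 and 3817 counts in Ctrl eLPre, 2192 and 5415 in Ctrl sPre, 42120 and 8337 in cKO eLPre, and 4483 and 5713 in cKO sPre. Scaled, this is 387 CPM in replicate 1 of cKO eLPre against 25.9 to 76.8 CPM in the other 7 libraries. *Rn18s*, the gene of the 18S ribosomal RNA, had 28811 counts in that same library, 2163 in replicate 2 of Ctrl sPre, which had the second highest *Lars2* level, and 75 to 324 in the other 6. The part of residual ribosomal RNA in the *Lars2* count was not tested. *Lars2* was called higher in cKO eLPre (Log2FC 2.26, SE 0.73, adjusted P = 0.0453) and lower in cKO sPre than in cKO eLPre (−2.26, SE 0.73, adjusted P = 0.0245). Without replicate 1 of cKO eLPre these became 0.45 (adjusted P = 0.557) and −0.45 (adjusted P = 0.458), and without replicate 2 of cKO eLPre 3.04 (adjusted P = 0.00501) and −3.04 (adjusted P = 0.00112). Leaving out either library of Ctrl eLPre or of cKO sPre also ended the first call (adjusted P = 0.184 and 0.163, and 0.0608 and 0.0612), and leaving out either library of cKO sPre ended the second (0.0888 and 0.0989). Without the gene, 10 of 15 mitochondrial genes rose in cKO eLPre, with a median of 0.56.

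**Figure D4:**
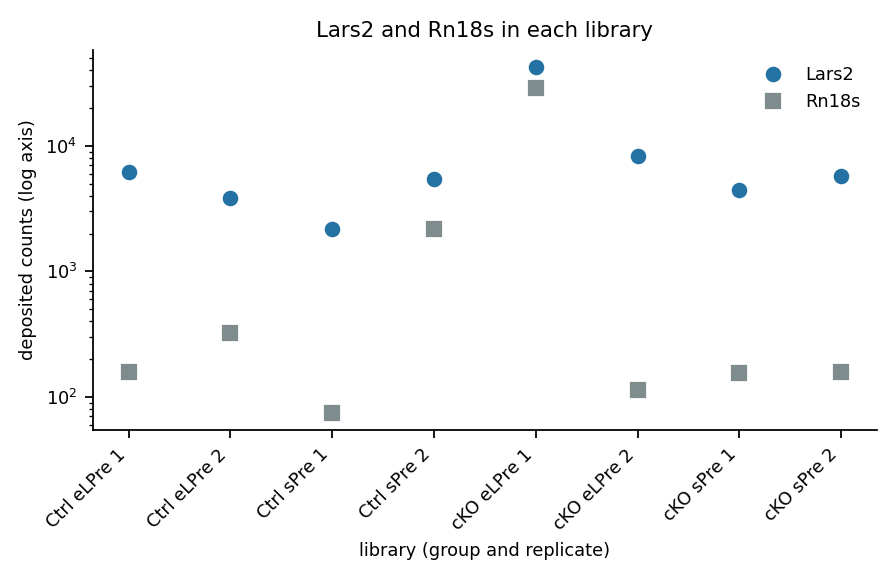
Deposited counts (log axis) of *Lars2* (circles) and *Rn18s* (squares) in each of the 8 libraries. Both are highest in replicate 1 of cKO eLPre, at 42120 and 28811 counts.

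From eLPre to sPre, most synthetase genes fell in both genotypes. In Ctrl cells, 14 of 19 cytosolic genes fell, with a median Log2FC (sPre against eLPre) of −0.45, and 8 of 16 mitochondrial genes, with a median of −0.31. Of all genes tested 31.1% fell and 29.1% rose, with a median of 0.02. No cytosolic gene rose, neither at an unadjusted P under 0.05 of edgeR's quasi-likelihood test nor with the likelihood-ratio test or DESeq2, and 2 mitochondrial genes did (*Fars2* and *Hars2*). In cKO cells, 11 cytosolic genes fell and *Vars1* rose, with a median of −0.41, while 8 mitochondrial genes fell and *Fars2* rose, with a median of −0.37. Here 31.1% of all genes fell and 31.6% rose, with a median of 0.05. Without replicate 1 of Ctrl eLPre, 9 cytosolic genes fell in Ctrl cells in place of 14, and 3 mitochondrial genes in place of 8, with medians of −0.25 and −0.15. The 5149 higher and 5500 lower genes of the whole table became 4771 and 4425, and their median 0.09. Leaving out replicate 1 or 2 of Ctrl sPre left 4 or 5 mitochondrial genes that fell, and 4907 or 4638 of all genes. The likelihood-ratio test and DESeq2 each called 6 mitochondrial genes lower in Ctrl cells. Among the 8, *Yars2* lost its call in 16 and *Vars2* in 12 of 18 alternatives. With library totals alone the Ctrl median of all genes moved to 0.22, the higher and lower genes of the whole table numbered 6531 and 4540, and 10 cytosolic and 3 mitochondrial genes fell while 1 cytosolic gene rose, with medians of −0.24 and −0.11. The 2 transitions share no library with each other, but each shares its libraries with both comparisons of genotypes, so that values of stage and genotype are set side by side only.

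**Figure D5:**
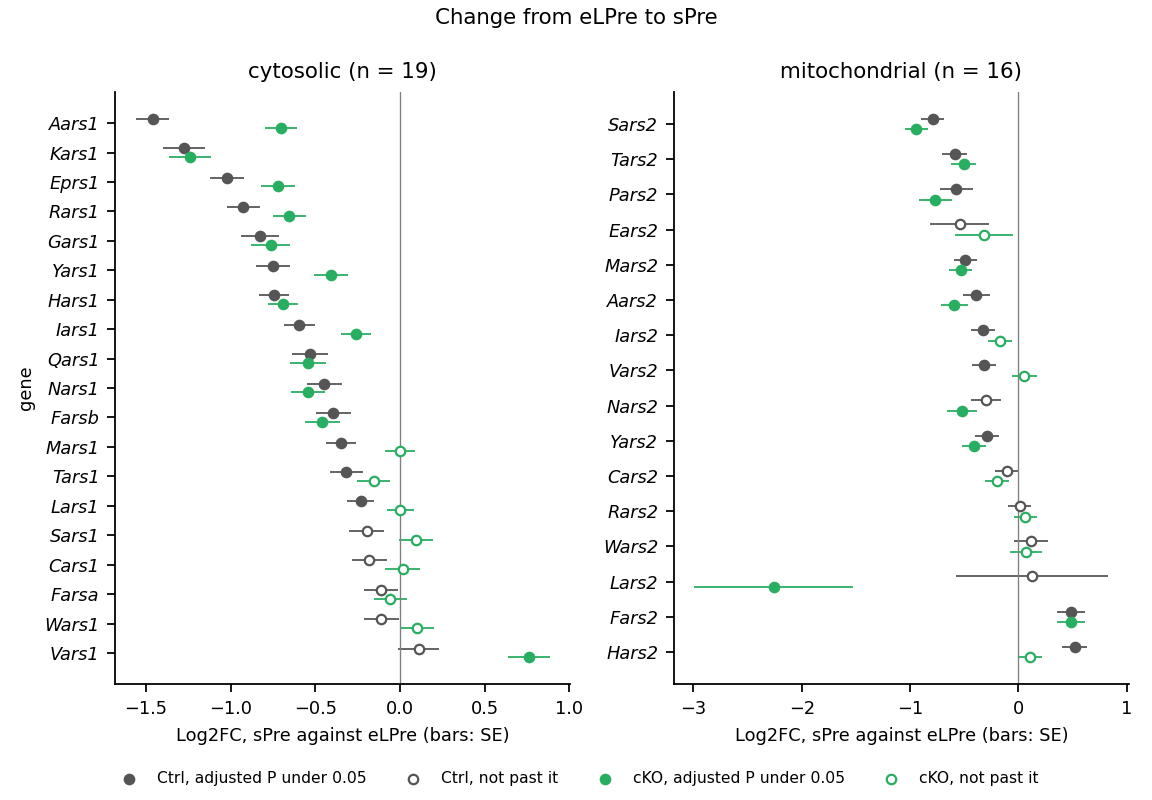
Log2FC of sPre against eLPre for each of the 19 cytosolic (left) and 16 mitochondrial (right) synthetase genes in Ctrl (grey) and cKO (green), with SE as bars and filled points for an adjusted P under 0.05, on separate horizontal scales. *Aars1* and *Kars1* fell most in Ctrl (−1.46 and −1.28), *Vars1* rose in cKO (0.76), and *Fars2* lies at 0.48 in both.

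The deepest fall in Ctrl cells was that of *Aars1*, the alanine enzyme (chromosome 8, 111027778 to 111055569), from 170 and 147 to 59.4 and 55.5 CPM. This is a Log2FC of −1.46 (SE 0.10, adjusted P = 5.73e-06), 2.76-fold lower. *Kars1*, the lysine enzyme of both compartments, went from 154 and 121 to 60.3 and 53.0 CPM in Ctrl and from 134 and 128 to 53.8 and 57.0 CPM in cKO cells. It fell by 1.28 and 1.24 on the log2 scale, with SE 0.12 in both, and the genotypes overlapped at either stage. *Eprs1*, the joint enzyme of glutamate and proline, went from 183 and 156 to 85.4 and 81.6 CPM in Ctrl and from 240 and 247 to 152 and 145 CPM in cKO cells (Log2FC −1.02 and −0.72). All 7 members of the multisynthetase complex, an assembly of cytosolic synthetases (*Eprs1*, *Iars1*, *Kars1*, *Lars1*, *Mars1*, *Qars1* and *Rars1*), fell in Ctrl cells, *Lars1* by a call that 12 of 18 alternatives ended, and 5 fell in cKO cells, where *Lars1* and *Mars1* had a Log2FC of 0.00 and −0.00. Of all genes, 31.1% fell in either genotype. *Lars1* in Ctrl cells (−0.23, adjusted P = 0.0353) lost its call without any 1 of the 4 Ctrl libraries (adjusted P from 0.0756 to 0.155) or of the 2 cKO sPre libraries (0.0545 and 0.055), and with all 8 libraries by the likelihood-ratio test (0.0646), by DESeq2 (0.0682), without the expression filter (0.072) and with library totals alone (−0.03, adjusted P = 0.745). *Mars1* in Ctrl cells (−0.35) lost it without replicate 1 of Ctrl eLPre (0.0754) or of Ctrl sPre (0.0537) and with library totals alone (0.145), and *Iars1* in cKO cells (−0.26) without any 1 of the 4 cKO libraries (0.0541 to 0.173), without the filter (0.052) and with library totals alone (0.0992).

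*Sars2*, the serine enzyme of the mitochondrion, fell most among mitochondrial genes other than *Lars2*. It was at 27.8 and 27.1 CPM in Ctrl eLPre, 14.8 and 17.0 in Ctrl sPre, 43.5 and 42.2 in cKO eLPre and 21.9 and 22.6 in cKO sPre, a Log2FC of −0.79 (adjusted P = 0.000241) in Ctrl and −0.94 (adjusted P = 8.35e-05) in cKO cells. Its cytosolic counterpart *Sars1* had −0.20 (adjusted P = 0.127) and 0.10 (adjusted P = 0.44), of which the first was called without replicate 2 of Ctrl eLPre (−0.26, 0.0387). *Pars2*, the proline enzyme, was at 13.6 and 12.2, 9.45 and 7.87, 12.3 and 11.2, and 7.55 and 6.24 CPM in Ctrl eLPre, Ctrl sPre, cKO eLPre and cKO sPre. It fell by 0.57 in Ctrl and by 0.77 in cKO cells on the log2 scale, and the first of these lost its call without replicate 1 of Ctrl eLPre (adjusted P = 0.09) or replicate 2 of Ctrl sPre (0.0944).

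In 2 amino acids, the enzymes of cytosol and mitochondrion moved in opposite directions. For phenylalanine, *Fars2* was at 29.0 and 32.5 CPM in Ctrl eLPre, 41.1 and 44.9 in Ctrl sPre, 23.9 and 30.4 in cKO eLPre and 37.6 and 38.3 in cKO sPre. It rose by 0.48 (SE 0.13) in both genotypes (adjusted P = 0.0108 in Ctrl and 0.0104 in cKO), while *Farsb* fell by 0.39 (adjusted P = 0.00944) and 0.46 (adjusted P = 0.00411) and *Farsa* had −0.11 and −0.06, short of the threshold. The rise of *Fars2* lost its call in Ctrl cells without replicate 2 of Ctrl sPre (adjusted P = 0.0608) and in cKO cells without replicate 1 of cKO eLPre (0.0828), and the fall of *Farsb* in Ctrl cells without replicate 1 of Ctrl eLPre (0.101) or of Ctrl sPre (0.0546). For histidine, *Hars1* was at 66.2 and 60.4 CPM in Ctrl eLPre, 38.7 and 36.9 in Ctrl sPre, 52.8 and 53.8 in cKO eLPre and 31.8 and 34.1 in cKO sPre. *Hars2* was at 27.5 and 31.0, 38.6 and 45.2, 33.7 and 36.6, and 38.0 and 37.7 CPM in the same order. In Ctrl cells *Hars1* fell (Log2FC −0.74, adjusted P = 0.000116) and *Hars2* rose (0.52, adjusted P = 0.00369). In cKO cells *Hars1* fell by 0.69 and *Hars2* had 0.11 (adjusted P = 0.428). The annotated spans of the 2 genes overlap at their ends, and reads there cannot be assigned to 1 of them without strand.

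The test of the interaction asked whether the difference between genotypes was itself different in sPre and in eLPre cells. It was called for 1 of the 35 members, *Aars1*, which is 1 of 19 cytosolic and 0 of 16 mitochondrial genes, against 2.64% of all genes with a positive and 1.6% with a negative interaction. With library totals alone the 467 positive and 283 negative genes became 318 and 462, and with DESeq2 they became 1037 and 721. Leaving out 1 library gave 81 to 657 positive and 41 to 245 negative genes, fewest without replicate 1 of cKO eLPre and most without replicate 1 of Ctrl sPre, with 204 and 215 without replicate 1 of Ctrl eLPre and 122 and 115 without replicate 2. *Aars1* was at 170 and 147 CPM in Ctrl eLPre, 230 and 231 in cKO eLPre, 59.4 and 55.5 in Ctrl sPre and 144 and 140 in cKO sPre. The genotypes did not overlap at either stage and lay farther apart in sPre cells, with a Log2FC of 0.54 (SE 0.10, adjusted P = 0.00401) in eLPre and 1.30 (SE 0.10, adjusted P = 5.89e-05) in sPre cells. The interaction was 0.76 (SE 0.14, adjusted P = 0.0253). It lost its call without replicate 1 of Ctrl eLPre (0.57, adjusted P = 0.0643), without replicate 2 of Ctrl sPre (0.71, 0.0768) and without any 1 of the 4 cKO libraries (0.74 to 0.78, adjusted P from 0.058 to 0.0966). *Vars1* came next among cytosolic genes at 0.65 (SE 0.17, adjusted P = 0.0734), and edgeR's likelihood-ratio test and DESeq2 called it (adjusted P = 0.0234 and 0.00163). Among mitochondrial genes, 1 was higher and 2 were lower at an unadjusted P under 0.05, and neither other tool called any. The quasi-likelihood test with a replicate block within genotype called *Vars1* (0.65, adjusted P = 0.0225) and *Hars2* (−0.41, adjusted P = 0.0492). With that block 1360 genes of the whole table were positive and 782 negative. Without the expression filter *Lars2* was called (−2.39, adjusted P = 0.0278).

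With *Lars2* left out, the ratio of cytosolic to mitochondrial synthetase RNA was higher in cKO than in Ctrl libraries of the same stage. Summed over the 19 cytosolic genes, levels were 2297 and 2018 CPM in Ctrl eLPre, 1592 and 1653 in Ctrl sPre, 2961 and 3010 in cKO eLPre and 2921 and 2860 in cKO sPre. Over the 15 mitochondrial genes other than *Lars2* they were 419 and 394, 338 and 370, 514 and 540, and 443 and 451 CPM. Both sums were higher in cKO than in Ctrl at each stage without overlap. The ratio of the first to the second was 5.48 and 5.12 in Ctrl eLPre, 4.71 and 4.47 in Ctrl sPre, 5.76 and 5.57 in cKO eLPre and 6.59 and 6.34 in cKO sPre, lowest in the Ctrl sPre and highest in the cKO sPre libraries. With *Lars2* among the mitochondrial genes the ratio was 4.95 and 4.56 in Ctrl eLPre, 4.38 and 3.70 in Ctrl sPre, 3.29 and 4.98 in cKO eLPre and 5.94 and 5.76 in cKO sPre, so that replicate 1 of cKO eLPre became the lowest of all libraries and the order in eLPre cells no longer held. *Vars1* makes up a large part of the cytosolic sum and rose in cKO sPre cells. The mean log2 level, in which each gene weighs the same, was, again without *Lars2*, higher for cytosolic genes by 2.002 and 1.915 in Ctrl eLPre, 1.692 and 1.593 in Ctrl sPre, 2.063 and 2.026 in cKO eLPre and 1.999 and 1.971 in cKO sPre. On that measure, too, the cKO libraries of each stage lay above Ctrl, and Ctrl sPre stands apart from the other 3 groups. Its highest values were those of cKO eLPre, where the ratio of sums was highest in cKO sPre. With *Lars2* included, the difference was 1.945 and 1.844 in Ctrl eLPre against 1.835 and 1.964 in cKO eLPre, which overlap, and 1.664 and 1.475 in Ctrl sPre against 1.942 and 1.92 in cKO sPre. No test was made of these sums.

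Amino acid by amino acid, 17 pairs of a cytosolic and a mitochondrial gene can be formed, in which *Eprs1* pairs with both *Ears2* and *Pars2* and *Fars2* with both *Farsa* and *Farsb*. The cytosolic gene had the more positive Log2FC in 8 of 17 pairs between genotypes in eLPre cells and in 12 of 17 in sPre cells. From eLPre to sPre it had the more positive Log2FC in 4 pairs in Ctrl and in 9 in cKO cells. The alanine pair, whose cytosolic gene is described above, had −1.46 for *Aars1* and −0.39 for *Aars2* in Ctrl cells and −0.70 and −0.59 in cKO cells. The fall of *Aars2* in Ctrl cells lost its call without either Ctrl eLPre library (adjusted P = 0.106 and 0.08) or replicate 1 of Ctrl sPre (0.113). In the interaction the cytosolic gene had the more positive value in 16 of 17 pairs, and the median over the cytosolic genes was 0.21 and over the mitochondrial genes −0.07, beside 0.07 for all genes. Without replicate 1 of Ctrl eLPre these medians became 0.07, −0.21 and −0.03, and with library totals alone 0.09, −0.18 and −0.04, so that the distance between the sets changed little while both shifted with all genes. These counts describe the genes and carry no test.

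Around the synthetases, most genes of the ATF4 program were higher in cKO cells. Of 18 genes of the program, *Atf4* included and synthetases left out, 12 rose and none fell in eLPre cells, with a median Log2FC of 1.06, and 12 rose and 2 fell (*Ddit4* and *Eif4ebp1*) in sPre cells, with a median of 1.35. Over all genes tested, 14.5% rose and 16.9% fell in eLPre and 19.8% rose and 14.9% fell in sPre cells. In eLPre cells none was lower at an unadjusted P under 0.05 either, nor by the likelihood-ratio test or DESeq2. *Asns*, the asparagine synthetase that makes the amino acid, rose most, from 1.57 and 1.397 to 31.7 and 36.9 CPM in eLPre cells and from 0.780 and 0.624 to 22.1 and 24.0 CPM in sPre cells. Its Log2FC was 4.53 (adjusted P = 3.42e-06) and 5.03 (adjusted P = 7.08e-06). *Atf4* was at 135 and 118 CPM in Ctrl eLPre, 461 and 403 in cKO eLPre, 129 and 139 in Ctrl sPre and 355 and 380 in cKO sPre. The study names *Ddit3*, also of this list, as a known target of nonsense-mediated decay. It found the *Ddit3* RNA bound by phosphorylated UPF1 in activated splenic B cells. The part of lost decay in the rise of these genes was not tested. *Ddit4*, an inhibitor of mTORC1 signalling, fell most in sPre cells (−0.89, adjusted P = 0.0016). *Psat1* of serine synthesis had 0.07 and −0.06 and did not pass. By stage, 10 genes of the list fell in Ctrl cells, the amino acid transporter *Slc7a5* most (−2.84), and 11 in cKO cells, *Vldlr* most (−2.80), while 3 rose in Ctrl and 2 in cKO cells, *Ddit4* most in both (1.36 and 0.57), beside 31.1% of all genes that fell in either genotype and 29.1% and 31.6% that rose.

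Genes of the scaffold proteins that hold the multisynthetase complex together were not higher in cKO cells. Of *Aimp1*, *Aimp2* and *Eef1e1*, none was called in cKO eLPre cells, at an unadjusted P under 0.05 or by the other tools, and *Eef1e1* fell in cKO sPre cells (−0.54, adjusted P = 0.0163). All 3 fell from eLPre to sPre in Ctrl cells, *Aimp2* most (−0.84), and 2 in cKO cells. The 5 genes of cytosolic elongation factors and their subunits all fell by stage in both genotypes, *Eef1b2* most (−1.58 and −1.30). The share of all genes that fell was 31.1% in either genotype. None was called between genotypes by the quasi-likelihood test. At an unadjusted P under 0.05, none passed in eLPre and 1 was higher and 1 lower in sPre cells, DESeq2 called 1 lower at each stage, and the likelihood-ratio test 1 lower in sPre cells.

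Of 11 partners of tRNA charging, 5 rose and 1 fell in cKO eLPre cells and 4 rose and 1 fell in cKO sPre cells, beside 14.5% and 19.8% of all genes that rose and 16.9% and 14.9% that fell. *Pstk*, a kinase of selenocysteine synthesis, rose most in eLPre cells (0.85) and *Gatb*, a subunit of the amidotransferase that completes mitochondrial glutaminyl-tRNA, in sPre cells, from 13.0 and 13.6 to 24.6 and 25.0 CPM (0.90, adjusted P = 0.000387). *Tars3*, a second cytosolic threonine enzyme, was at 8.85 and 8.19 CPM in Ctrl eLPre, 2.73 and 3.70 in Ctrl sPre, 9.38 and 10.2 in cKO eLPre and 0.900 and 1.34 in cKO sPre. It fell in cKO sPre cells (−1.52, adjusted P = 0.00157), while *Tars1* rose (0.55, adjusted P = 0.00314). *Prorsd1*, an editing factor of proline, fell in cKO eLPre cells (−0.49). By stage, 5 partners fell and 2 rose in either genotype, where 31.1% of all genes fell and 29.1% in Ctrl and 31.6% in cKO cells rose, led by *Aarsd1* in Ctrl (−2.07) and *Tars3* in cKO cells (−3.12) downward and by *Mtfmt* (0.61) and *Prorsd1* (0.78) upward.

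In the machinery that uses charged mitochondrial tRNA, genes moved in both directions, and the counts are given beside the 14.5% of all genes tested that rose in eLPre and the 19.8% in sPre cells, and the 16.9% and 14.9% that fell. Of 9 mitochondrial translation factors, 2 rose in cKO eLPre and 3 in cKO sPre cells, led by the release factor *Mtrf1l*, from 18.5 and 19.5 to 39.4 and 44.9 CPM in sPre cells (1.15, adjusted P = 0.000326), and none fell, with 1 lower at an unadjusted P under 0.05 in sPre cells and none called lower by the other tools. Of 78 mitochondrial ribosomal protein genes, 8 rose and 5 fell in eLPre cells and 11 rose and 8 fell in sPre cells, with medians of −0.04 and 0.05, smaller shares than over all genes in every case. *Mrps18b* rose most at both stages (1.07 and 0.92), and *Mrpl57* fell most in eLPre (−0.61) and *Mrpl52* in sPre cells (−0.75). By stage, 63 of these 78 fell in Ctrl and 57 in cKO cells, with medians of −0.65 and −0.57, beside the 31.1% of all genes that fell in either genotype. *Mrpl12* fell most in Ctrl (−1.72) and *Mrpl42* in cKO cells (−1.71), and 2 rose in Ctrl and 1 in cKO cells, led by *Mrpl43* (0.29 and 0.42). Of the 9 translation factors, 6 fell and 1 rose in Ctrl cells and 5 fell and 1 rose in cKO cells, with the elongation factor *Tsfm* lowest (−1.02 and −0.98) and the recycling factor *Gfm2* highest (0.61 and 0.71). The difference between these lists and the synthetases was not tested.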

How the data were processed

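Raw gene counts were analysed as the authors deposited them, in 1 table of whole-number counts for 8 libraries. They had trimmed the reads with Trim Galore, aligned the pairs to mm10 with HISAT2 and counted them per Entrez gene with featureCounts, without strand, and the versions are not given in the sources used here. Because strand was not used, genes that overlap share reads. Of 27179 genes, 25275 were named from RefSeq, and 1 of the marker genes searched was not in the table.

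Counts were filtered with filterByExpr, scaled with TMM (factors 0.862 to 1.09) and fitted with edgeR 4.0.16 in R 4.3.3, with 1 mean per group and all 8 libraries sharing the estimate of spread (common BCV 0.174). The quasi-likelihood F test is two-sided, with Benjamini-Hochberg adjustment over 17700 genes and a call at an adjusted P under 0.05, and the SE is the Log2FC over the root of F. Each stage was compared between genotypes, each genotype between stages, and the interaction was tested. The script was tested on simulated counts. CPM per kilobase divide by the union of GENCODE exons, from transcripts matched to a RefSeq mRNA and within the span of the RefSeq gene.

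The 35 genes, the gene lists and the grouping by ATF4 were chosen with earlier results of these data known. Values per library are given for the 3 genes with the largest rise and fall in each comparison among those called without overlap of libraries, for genes called in the interaction, for enzymes of 1 amino acid called in opposite directions and for the highest and lowest genes per length. Other genes named with their values were chosen after these were seen. The alternatives were other scaling factors, library totals alone, scaling without immunoglobulin genes, no filter, the likelihood-ratio test, DESeq2 1.42.0, the replicate number as a block, the 2 groups compared alone and each library left out. The fit without both replicate 2 libraries of Ctrl was added after the *Xist* counts were seen.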

Additional observations from a re-analysis of the deposited data

Results flagged for a closer look

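For 5 genes among the members and the lists around them, and for 6 marker genes, the difference between genotypes differed between sPre and eLPre cells. These calls come from edgeR's test of the interaction, with Benjamini-Hochberg adjustment over all genes. Positive ones were 1 of 35 members, 2 of 18 genes of the ATF4 program, 4 of 15 pre-B and 1 of 8 myeloid markers. Negative ones were 1 of 18 genes of the ATF4 program, 1 of 11 partners of tRNA charging and 1 of 5 T cell markers tested. Of all genes tested, 2.64% had a positive and 1.6% a negative interaction. The counts over all genes moved with single libraries, as given above, and of these genes only *Aars1* was followed there. *Aars1* had an interaction of 0.76 (SE 0.14, adjusted P = 0.0253) and is described with its levels above. *Mthfd2*, an enzyme of mitochondrial folate metabolism, had 1.27 (SE 0.23, adjusted P = 0.0233). It was at 75.1 and 66.5 CPM in Ctrl eLPre against 105 and 109 in cKO eLPre, and at 11.9 and 8.06 against 37.4 and 35.7 CPM in sPre cells, higher in cKO at both stages without overlap. *Atf5*, a transcription factor downstream of ATF4, had 0.81 (SE 0.18, adjusted P = 0.0428), with 27.6 and 24.3 against 31.0 and 29.6 CPM in eLPre and 5.84 and 5.53 against 12.4 and 10.8 CPM in sPre cells. *Eif4ebp1*, an inhibitor of cap-dependent translation, had −1.25 (SE 0.23, adjusted P = 0.0269) and differed in direction between the stages, with 23.9 and 16.6 against 32.4 and 30.4 CPM in eLPre and 24.8 and 24.1 against 15.4 and 16.4 CPM in sPre cells. *Tars3* had −1.71 (SE 0.32, adjusted P = 0.0269), and its cKO sPre libraries were the lowest of all 8. Of the markers, *Dntt* (2.59, adjusted P = 0.00433), *Rag1* (1.68, 0.0315), *Vpreb1* (1.41, 0.0346) and *Rag2* (0.89, 0.0346) of the pre-B list and the myeloid *Itgam* (0.90, 0.0472) had a positive interaction, and the T cell marker *Lck* a negative one (−1.06, 0.045). Their part in the interactions of the synthetase genes was not tested.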

How the results depend on the processing

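Of the 92 member values called, 37 of 873 recomputed without leaving out a single library were no longer called, 10 of them with library totals alone and 10 without both Ctrl replicate 2 libraries. With 1 library left out at a time, 80 of 736 were no longer called. None of these values changed sign. The fit without both Ctrl replicate 2 libraries keeps 1 Ctrl library at each stage. Between genotypes in sPre cells it gave a Log2FC of 0.42 for *Wars1*, 0.46 for *Wars2* and −0.44 for *Mars2*. With all 8 libraries these were 0.50, 0.525 and −0.31. With library totals alone, 5 mitochondrial genes were called from eLPre to sPre in Ctrl cells in place of 10. In the interaction, 2 cytosolic genes were called in place of 1 with the likelihood-ratio test, with DESeq2 and with the replicate block within genotype, and 0 without both Ctrl replicate 2 libraries. There 1 mitochondrial gene was called in place of 0 without the expression filter and 1 with the replicate block within genotype. Beside the fewer libraries of 1 setting, the cause was not tested.

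With 1 library left out, called genes ranged from 9 to 14 cytosolic and 5 to 8 mitochondrial from eLPre to sPre in Ctrl cells, from 11 to 12 and 6 to 10 in cKO cells, from 11 to 13 and 6 to 11 between genotypes in eLPre cells, from 14 to 14 and 4 to 10 in sPre cells, and from 0 to 1 and 0 to 0 in the interaction.

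The replicate numbers were not shown to pair the libraries. Deviations of libraries with the same number correlated at 0.395 between the Ctrl stages, 0.254 between the cKO stages, 0.155 between genotypes in eLPre and 0.0858 in sPre cells. With the replicate block, 12 cytosolic and 10 mitochondrial genes were called between genotypes in eLPre and 14 and 11 in sPre cells, where the 11 include *Mars2* as lower (−0.31, adjusted P = 0.0428) and *Aars2* as higher (0.36, adjusted P = 0.0336), both short of a call without the block, and the call of *Lars2* in eLPre cells was lost (Log2FC 2.19, adjusted P = 0.0672). With 2 libraries in each group, differences near an absolute Log2FC of 0.3 lay close to what the spread between libraries allows to be called, and *Ears2*, *Nars2*, *Pars2* and *Wars2* had the 4 lowest mean CPM of the members in each of the 4 groups.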
